A study of Homo sapiens with 4 samples.

Results

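FOXC1 peaks on human chromosome 20 were examined in J82 cells, a bladder cancer cell line grown in culture. FOXC1 chromatin immunoprecipitation with sequencing (ChIP-seq) had been done in 2 biological replicates with the antibody D8A6, and each replicate had an input library made without antibody, so the series held 4 libraries. All libraries came from J82 cells grown in DMEM with 10% FBS, the labels name no treatment, and no second cell line, knockout or treatment was compared. The members were chosen by their position and by their presence in the peak lists: every peak that lay on chromosome 20 in either list was taken, and whether a peak overlapped one of the other list by at least 1 bp sorted it into a group. This gave 1034 of 22405 peaks in replicate 1 (4.62%) and 1836 of 41789 in replicate 2 (4.39%). Overlapping peaks were merged into 432 shared regions, which left 595 peaks listed only in replicate 1 and 1404 listed only in replicate 2. All coordinates are on hg19. P-values below are over regions of the same libraries and not over samples.

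FOXC1 belongs to the forkhead family of transcription factors, which hold DNA through a winged-helix domain and read short AT-rich sequences. It is known for its part in the development of mesenchyme, the eye and blood vessels, and it is expressed in several aggressive carcinomas. In ChIP-seq, fragments bound by the protein are recovered with an antibody, and a peak is a place where they pile up above background. AP-1, whose site is searched for below, is a dimer of JUN and FOS family proteins that is often found at enhancers of epithelial and cancer cells.

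The sequences at the strongest regions are shown first, because they differ in what they hold. Windows that reach 50 bp to each side of the summit are given on the plus strand, and capitals mark every match to 3 searched elements. The forkhead element was any of ATAAACA or ATAAATA or GTAAACA or GTAAATA, the AP-1 element was TGACTCA or TGAGTCA, and both strands were read. The CCAA-extended forkhead element, a longer form that overlaps the forkhead one, had been read earlier from the strongest peaks of these data, and its counts are only a description.
NINL window (chr20:25488827-25488927): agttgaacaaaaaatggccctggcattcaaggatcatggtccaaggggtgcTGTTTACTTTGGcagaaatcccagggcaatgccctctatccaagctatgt
GGCTP2 window (chr20:18205890-18205990): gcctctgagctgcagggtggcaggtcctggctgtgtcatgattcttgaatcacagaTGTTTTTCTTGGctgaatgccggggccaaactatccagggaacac
KCNK15-AS1 window (chr20:43321674-43321774): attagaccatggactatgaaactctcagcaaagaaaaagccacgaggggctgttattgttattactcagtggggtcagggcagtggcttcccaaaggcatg
TGM2 window (chr20:36763215-36763315): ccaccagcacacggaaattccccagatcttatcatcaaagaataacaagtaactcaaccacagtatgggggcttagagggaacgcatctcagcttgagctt
DYNLRB1 window (chr20:33113701-33113801): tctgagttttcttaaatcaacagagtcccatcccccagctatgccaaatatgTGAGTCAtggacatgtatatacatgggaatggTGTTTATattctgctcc
UQCC1 window (chr20:33908320-33908420): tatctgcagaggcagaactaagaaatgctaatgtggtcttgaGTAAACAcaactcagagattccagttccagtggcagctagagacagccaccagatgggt
ATP9A window (chr20:50248017-50248117): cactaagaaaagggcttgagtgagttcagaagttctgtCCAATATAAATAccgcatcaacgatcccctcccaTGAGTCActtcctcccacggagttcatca
BCAS1 window (chr20:52684308-52684408): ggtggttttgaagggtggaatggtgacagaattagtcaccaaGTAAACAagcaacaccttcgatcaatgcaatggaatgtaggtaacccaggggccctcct
PLCB1 window (chr20:8137284-8137384): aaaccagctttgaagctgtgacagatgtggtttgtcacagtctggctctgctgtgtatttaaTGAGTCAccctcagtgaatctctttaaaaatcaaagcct

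The best region of the chromosome lay in an intron of NINL, a centrosomal protein related to ninein, at chr20:25488040-25489389. Its fold enrichment, the ratio of reads at the summit to the local background with 1 added to each, after replicate 2 reads were scaled by 0.9041, was 57.6 in replicate 1 and 94.3 in replicate 2, from 367 and 495 reads. Its forkhead match lay 1 bp from the summit and was also part of a CCAA-extended match. For the regions shown, distances from the summit are to the lowest-coordinate base of a match. The next, between genes at chr20:18205321-18206432 and 5183 bp from the pseudogene GGCTP2, had enrichments of 38.7 and 78.4. It held no forkhead heptamer but a CCAA-extended match 6 bp from the summit. Both regions were on the short arm.

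At the other regions shown, the enrichment was between 19.8 and 36.0 in replicate 1 and between 22.9 and 55.8 in replicate 2. The third region lay in an intron of the long non-coding RNA KCNK15-AS1 (chr20:43321235-43322309), with enrichments of 23.7 and 55.8, and it held none of the 3 elements. The same was true of the region inside TGM2, the gene of the crosslinking enzyme transglutaminase 2, at chr20:36762719-36763769. This was the only one of the 20 best regions that was higher in replicate 1, with 36.0 against 30.8. It lay 1103 bp from the start of a TGM2 transcript that is not protein-coding, and 30407 bp from the nearest protein-coding start. The region in the dynein light chain gene DYNLRB1 (chr20:33113125-33114214; 19.8 and 40.4) held an AP-1 match 2 bp and a forkhead match 34 bp from the summit. That in an intron of ATP9A, which encodes a putative phospholipid flippase (chr20:50247433-50248606; 20.96 and 22.9), held all 3 elements. The regions in UQCC1, an assembly factor of respiratory complex III (chr20:33906711-33908821; 24.2 and 33.99), and in BCAS1 (chr20:52683948-52684803, 666 bp from the start of MIR4756; 23.5 and 49.6) each held GTAAACA 8 bp from the summit. The region in an intron of PLCB1, a phospholipase C (chr20:8136982-8137897; 22.4 and 31.2), held AP-1 alone.

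Of the 20 best regions, ordered by −log10 p, with each region placed by its poorer rank of the 2 replicates, 14 held a forkhead match, 5 an AP-1 match and 3 a CCAA-extended match, while 2 held none of them. They lay in introns (10 regions), at promoters (5) and between genes (5). A promoter here is a summit within 2 kb of the start of any annotated transcript. Other genes in this group were EYA2, a transcriptional co-activator with phosphatase activity, RIPOR3, the shieldin subunit gene SHLD1 and the immune receptor gene SIRPB2.

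To compare chromosome 20 with other chromosomes, peaks were counted per Mb of sequence. Chromosome 20 had more peaks per Mb than any other of 23 chromosomes (1 to 22 and X), with 17.4 in replicate 1 and 30.9 in replicate 2. The next were chromosome 9 in replicate 1, with 11.3, and chromosome 3 in replicate 2, with 18.0. It also led in shared regions, with 7.26 per Mb against 4.63 over all chromosomes. The small chromosomes most like it in length had fewer, as chromosome 19 had 6.06 and 14.8 peaks per Mb, chromosome 21 had 3.53 and 9.63 and chromosome 22 had 4.24 and 11.6. Peak numbers chose the members, so these values are given without a test.

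The peaks of chromosome 20 were low in enrichment but not in reads. At a summit the median number of reads was 19 in replicate 1 and 25 in replicate 2, against 18 and 23 over all chromosomes. The median fold enrichment was 2.60 in replicate 1 and 2.99 in replicate 2, the lowest of the 23 chromosomes in both lists, against 3.02 and 3.63 over all chromosomes. When only peaks with a fold enrichment of at least 5 were kept, 90 and 312 peaks were left. Chromosome 20 then ranked 11 of 23 by density in replicate 1 (1.51 per Mb) and still 1 of 23 in replicate 2 (5.24 per Mb). With a −log10 q of at least 5, 188 and 628 peaks were left, at rank 2 and rank 1.

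The local background, which the peak caller took as the higher of the genome-wide and the local read density of the input, was also highest on chromosome 20. Its median at the peaks was 6.29 reads in replicate 1 and 6.0 in replicate 2, or 1.51 and 1.60 times the genome-wide background of the library. The next highest medians were 5.61 on chromosome 3 and 5.43 on chromosome 13. At the peaks of chromosomes 21 and 22 the median was at the genome-wide level in both replicates. Across the 23 chromosomes, Spearman's rho between peak density and this background was 0.89 in replicate 1 and 0.74 in replicate 2, a description over points that come from the same libraries. The part of the background in the number of peaks was not tested.

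**Figure D1:**
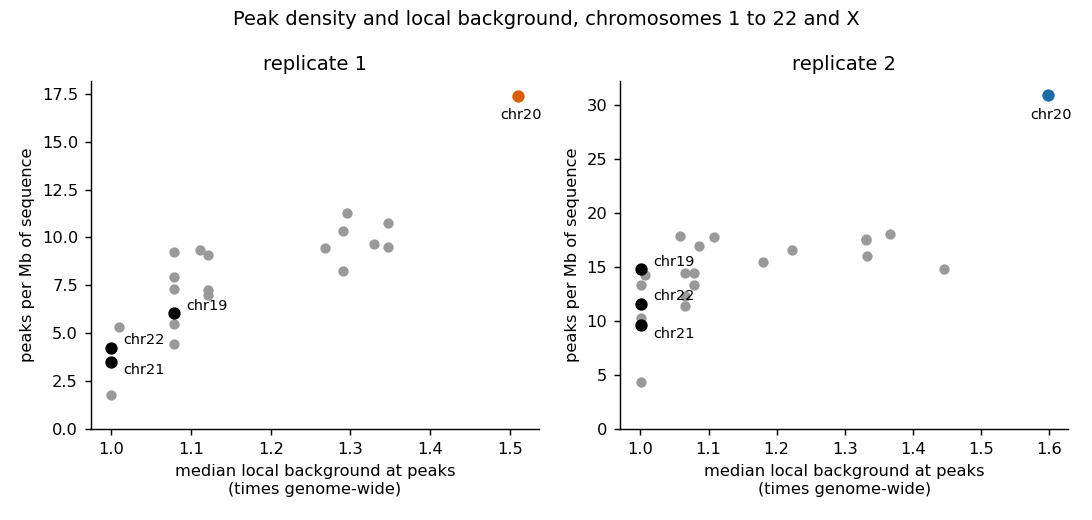
Peaks per Mb of sequence (vertical axis) against the median local background at the peaks, in multiples of the genome-wide background of the library (horizontal axis), for each replicate; each point is 1 of 23 chromosomes. Chromosome 20 is the coloured point, alone at the upper right at 17.4 and 30.9 peaks per Mb, while chromosomes 21 and 22 sit at the left end.

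Peaks were unequally spread along the chromosome. The long arm (33.2 Mb of sequence) held 771 and 1395 peaks and the short arm (26.3 Mb) 263 and 441, so that the long arm had 2.32 and 2.50 times as many per Mb. For shared regions the ratio was 1.88, with 304 regions on the long arm (9.14 per Mb) and 128 on the short arm (4.87 per Mb). It was smaller for peaks with a fold enrichment of at least 5, at 1.36 and 1.28. The median local background differed in the same direction, at 7.24 and 7.0 reads on the long arm and 4.49 and 4.05 on the short arm. The median fold enrichment went the other way, at 2.51 and 2.87 on the long arm and 2.90 and 3.61 on the short arm.

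The long arm itself was divided. Local background is known here only at called peaks, so each 1 Mb bin was given the median over its peaks. From 30 to 53 Mb this median was at least 1.3 times the genome-wide background in every bin and both replicates. Bins on the short arm stayed between 1.0 and 1.29 in replicate 1 and between 1.0 and 1.33 in replicate 2. This run of 23 bins made up 38.6% of the sequence, and 57.5% of all replicate 1 peaks and 60.8% of those of replicate 2 lay in it. Beyond it, from 53 Mb to the end, the median fell back to 1.14 and 1.07 times. The limits of the run were set after these values were seen, so what follows is a description.

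Within the run, 6 neighbouring bins from 46 to 52 Mb had a background of at least 2 times the genome-wide one in both replicates, with a median over their peaks of 3.02 and 2.93 times. They held 205 and 457 peaks, 34.2 and 76.2 per Mb, and 108 shared regions, or 18 per Mb. The densest bin, from 48 to 49 Mb, held 60 and 125 peaks, where the median bin of the chromosome held 15 and 21. The bin with the highest background, from 51 to 52 Mb (4.10 and 3.24 times), held only 9 and 23 peaks and 5 shared regions. Peaks of the 6 bins were tall in reads and low in enrichment. Enrichment is divided by the background that chose these bins, so part of this follows from the choice. The median number of reads at a summit was 30 and 34 against 15 and 21 on the short arm, and the median fold enrichment was 2.27 and 2.57. These 6 bins have only 5.33 protein-coding genes per Mb, fewer than the 12.7 in the rest of the run. They hold the genes of the C/EBP family factor CEBPB, the calcium-regulated factor NFATC2, the nuclear receptor co-activator NCOA3, the Rac exchange factor PREX1, the tyrosine phosphatase PTPN1 and ATP9A.

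Leaving out the 6 bins lowered the density of shared regions from 7.26 to 6.06 per Mb and the ratio of the long to the short arm from 1.88 to 1.48. The end of the long arm differed from both. Its background was near the genome-wide one. Replicate 1 listed 17.8 peaks per Mb there, of which 21.02% were overlapped by replicate 2. Replicate 2 listed 28.1 per Mb, of which 13.0% were overlapped by replicate 1. Shared regions numbered 3.65 per Mb. Across 1 Mb bins, Spearman's rho between peak number per Mb and local background was 0.66 in replicate 1 (60 bins) and 0.46 in replicate 2 (61 bins). With the number of protein-coding genes per bin it was 0.41 and 0.55. Bins share libraries and neighbouring bins are alike, so these are descriptions.

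**Figure D2:**
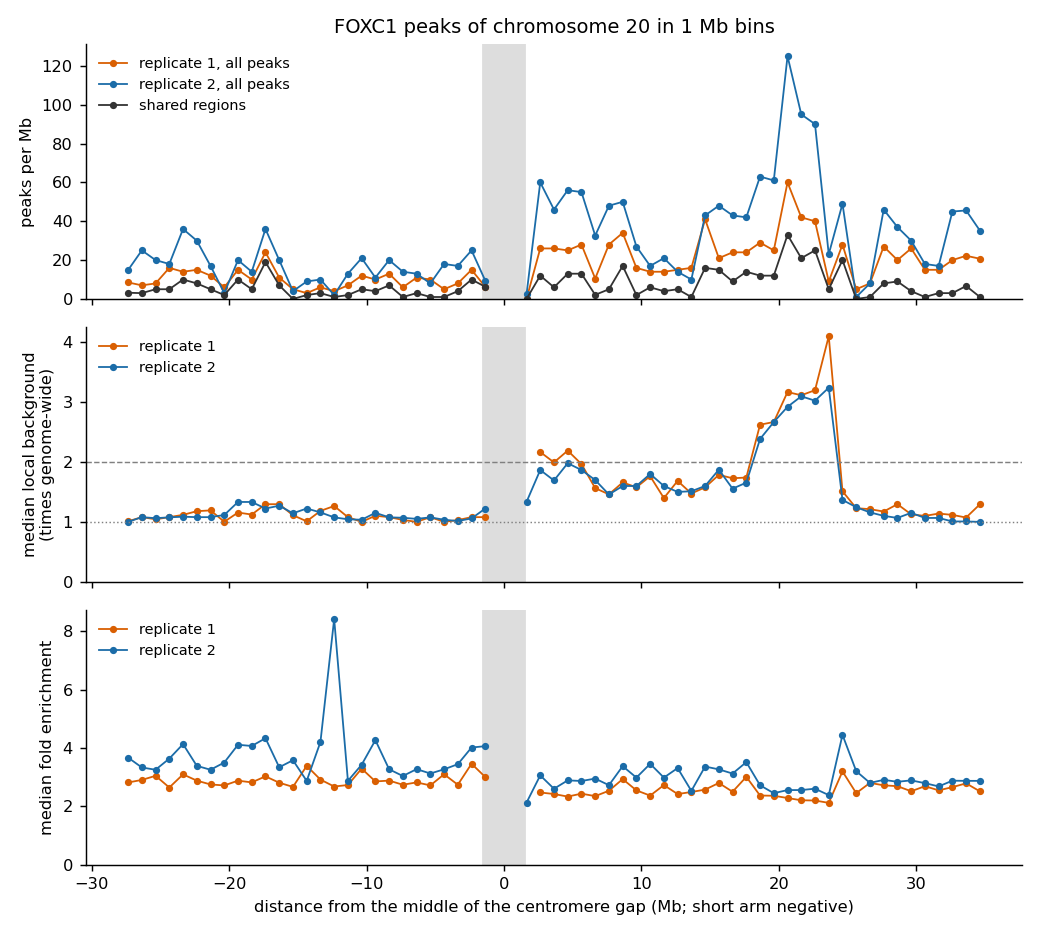
Peaks per Mb, median local background in multiples of the genome-wide one, and median fold enrichment in 1 Mb bins along chromosome 20, by distance in Mb from the middle of the centromere gap (grey band), for replicate 1 (orange), replicate 2 (blue) and shared regions (black). In 6 long-arm bins the median background at the bin's peaks is at least 2 times the genome-wide one in both replicates. One of them holds 125 replicate 2 peaks and another, with the highest background, only 23.

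Some stretches had few shared regions. The longest gap between neighbouring shared summits outside the centromere was 1.84 Mb, from 52962079 to 54798594, and the median spacing was 50694.5 bp. On the short arm, the bin from 10 to 11 Mb, which holds SLX4IP, had 19 shared regions, and that from 12 to 13 Mb had none.

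Chromosome 20 had 1.78 times as many replicate 2 as replicate 1 peaks, against 1.87 times over all chromosomes, and the lists overlapped less there than elsewhere. Of its replicate 1 peaks, 439 were overlapped by a replicate 2 peak (42.5%, 95% Wilson interval 39.5 to 45.5%), beside 59.6% over all chromosomes. Of its replicate 2 peaks, 432 were overlapped by a replicate 1 peak (23.5%, 21.6 to 25.5%), beside 31.7% over all chromosomes. Both shares were the lowest of the 23 chromosomes. The replicate 1 share was 60.1% on chromosome 19, 91.1% on chromosome 21 and 81.8% on chromosome 22. The replicate 2 share was 24.6% (21.8 to 27.7%) on chromosome 19, with an interval that overlaps that of chromosome 20, 33.4% on chromosome 21 and 29.7% on chromosome 22. When both lists were limited to a fold enrichment of at least 5, 98.9% of the 90 replicate 1 peaks were overlapped. Of the 312 replicate 2 peaks at this limit, only 28.5% were. Intervals cover counting error only. Across chromosomes, Spearman's rho between the replicate 1 share and the median local background was −0.74, and for replicate 2 it was 0.04 (23 chromosomes each).

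At the 432 shared regions, the median fold enrichment was 3.14 (replicate 1) and 5.73 (replicate 2). Chromosome 19 had 3.86 and 7.25, chromosome 21 had 4.07 and 7.63 and chromosome 22 had 4.74 and 8.67, all higher. The median reads at shared regions went the other way, with 28 and 50 on chromosome 20. They were 21 and 42 on chromosome 19, 21 and 41 on chromosome 21 and 24 and 48 on chromosome 22. On chromosome 20 the enrichment was higher in replicate 2 in 405 regions (93.75%), with a median ratio of 1.71, and Spearman's rho across regions was 0.76. The median distance between paired summits was 30 bp, and 84.0% of pairs were no more than 100 bp apart. In the 6 high-background bins the enrichments were lower, at 2.58 and 4.57, but the median ratio was nearly the same at 1.69. These bins were chosen by their background, which divides the reads, so lower enrichment is in part built in.

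**Figure D3:**
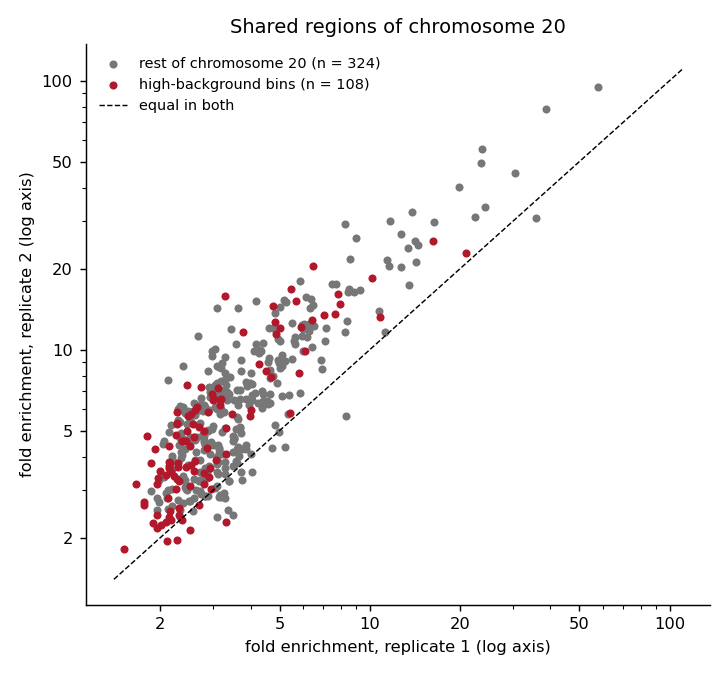
Fold enrichment in replicate 1 (horizontal) and replicate 2 (vertical), both on log axes, for each of the 432 shared regions; red points lie in the 6 high-background bins and the dashed line marks equal values. Most points lie above the line, and the 108 red points reach from the weakest regions to enrichments of 20.96 and 25.4.

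Peaks without a partner were weak in replicate 1 and less so in replicate 2. The 595 peaks of replicate 1 had a median −log10 q of only 1.07, and 2 of them had a −log10 q of at least 5. Their median fold enrichment was 2.47 and the maximum was 3.65, at chr20:59109537-59109820. The second, between genes at chr20:57956123-57956613, also had 3.51, from 19 reads. The third (3.51, from 36 reads) lay in an intron of CBFA2T2, a transcriptional co-repressor, at chr20:32173150-32173559. The 1404 peaks of replicate 2 had a median fold enrichment of 2.83 and a median −log10 q of 2.26. Of these, 273 reached a −log10 q of at least 5. The highest, at chr20:52239989-52240874, had a fold enrichment of 9.10 from 50 reads and lay 13837 bp from the nearest start, that of ZNF217, which encodes a zinc finger co-repressor. The second, between genes at chr20:11435518-11436650, had 7.85 and held an AP-1 match. The third, in an intron of the acetyl-CoA synthetase gene ACSS2 (chr20:33495213-33495756), had 7.63.

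At the edge of the overlap rule, the pair with the smallest overlap shared 32 bp (chr20:51614203-51614502 and chr20:51614471-51614775), with enrichments of 2.10 and 1.94. The pair that came closest without overlapping lay 2 bp apart (chr20:42345421-42345726 and chr20:42345729-42346019), with 2.78 and 3.17.

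To describe the sequence at the peaks, the window within 50 bp of each summit was compared with a control window 500 bp downstream. The forkhead element was found at 192 of the 432 shared summits (44.4%, 39.8 to 49.2%) and in 10.2% of control windows (exact McNemar test, two-sided, p = 9.6e-28, over regions and not over samples). When the whole chromosome was cut into tiles of the same length, 9.17% of them held it. GTAAACA alone was found at 20.6% of summits and in 2.08% of control windows. The AP-1 element was found at 78 shared summits (18.1%, 14.7 to 21.96%), in 2.08% of control windows (exact McNemar test, p = 2.77e-15) and in 1.61% of tiles. Both elements were present at 33 regions, AP-1 without forkhead at 45, and neither at 195 (45.1%). The CCAA-extended element was found at 6.48% of summits, 0.46% of control windows and 0.47% of tiles.

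At peaks listed only in replicate 1 no difference from the control windows passed the test. The forkhead element was found at 51 of 595 summits (8.57%, 6.58 to 11.1%) against 6.55% in the control (p = 0.224 by the exact McNemar test), near the 9.17% of all tiles. AP-1 was found at 8 summits (1.34%) and in 1.01% of control windows (exact McNemar test, p = 0.791). Peaks listed only in replicate 2 lay between, with forkhead at 352 of 1404 summits (25.1%, 22.9 to 27.4%) against 8.48% of control windows (exact McNemar test, p = 2.72e-33), and AP-1 at 6.2% against 1.35% (exact McNemar test, p = 1.4e-11). Among these replicate 2 peaks, GTAAACA stood at 9.47% of summits and in 1.42% of control windows. The windows also differed in base composition, with a median GC content of 43.6% at shared summits, 48.5% at peaks only in replicate 1 and 46.5% at peaks only in replicate 2, and the part of GC content in the element shares was not tested.

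**Figure D4:**
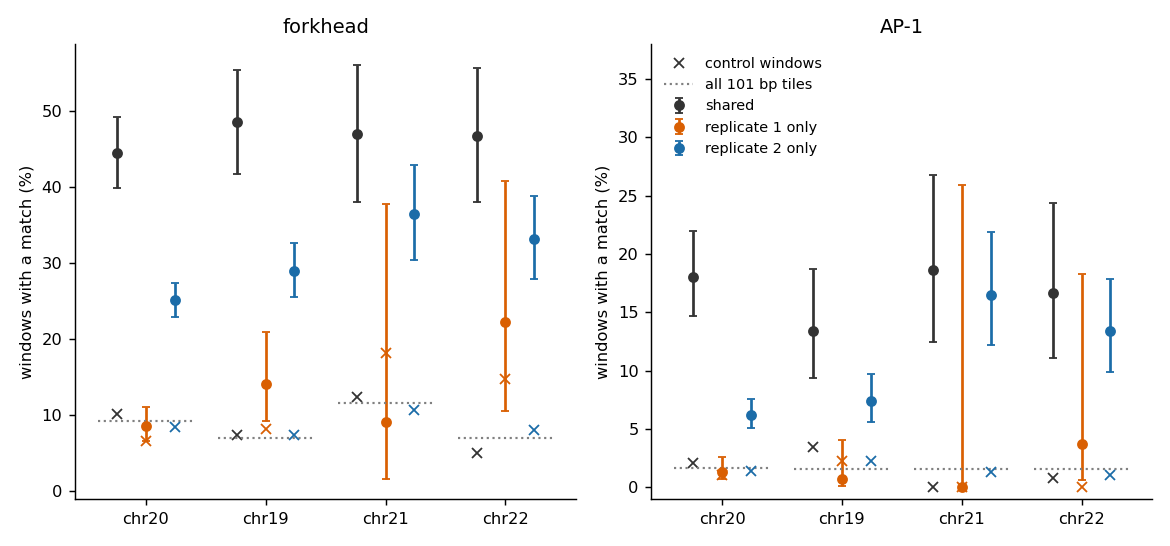
Share of summit windows with a forkhead (left) or AP-1 (right) match, in percent, for shared regions (black), peaks only in replicate 1 (orange) and peaks only in replicate 2 (blue) of 4 chromosomes; bars are 95% Wilson intervals, crosses are control windows and dotted lines all tiles of the chromosome. On chromosome 20 the orange point, at 8.57% for forkhead, lies at the dotted line, and the black point, at 44.4%, is far above it.

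With distances measured to the centre of each match, forkhead matches were centred on the summits. Within 20 bp of a shared summit there were 138 matches, against 20 around the control points, and the fullest 10 bp interval was the one that ends at the summit, with 49. AP-1 matches numbered 32 within 20 bp of the summit and 153 within 150 bp, and they lay to both sides of it. The fullest interval, 20 to 30 bp above the summit in coordinates, held 16, and the one from 20 to 10 bp below it held 14. That from 10 bp below to the summit held 2, while those from 0 to 10 and 10 to 20 bp above it held 7 and 9. Per 100 bp and 100 regions, there were 18.5 AP-1 matches within 20 bp of the summit and 5.79 at 100 to 150 bp.

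**Figure D5:**
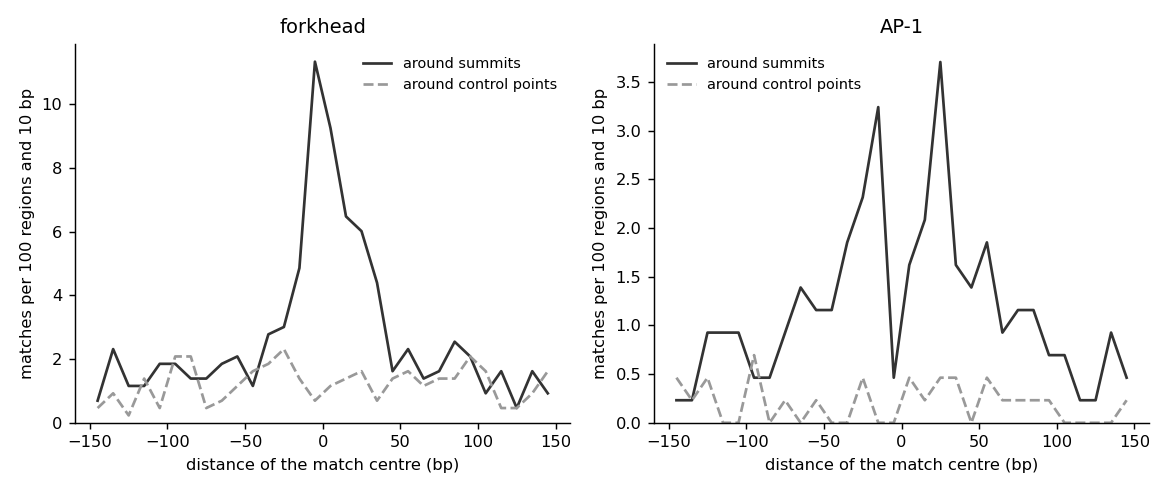
Matches per 100 regions and 10 bp interval (vertical) by the distance of the match centre from the summit in bp (horizontal). They are shown for the 432 shared regions of chromosome 20, with forkhead on the left and AP-1 on the right. Dashed lines show the control points. Forkhead matches form 1 central peak, with 49 matches in the fullest interval. AP-1 matches are also more frequent near the summit than farther out, with 16 and 14 in the fullest intervals, which lie to either side.

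The shared regions were also divided by rank into 4 groups of 108, without a test. In the 108 best-ranked shared regions (median fold enrichment 6.26 and 13.0), 51.9% (42.5 to 61.0%) held forkhead and 29.6% (21.8 to 38.8%) held AP-1. In the 108 last-ranked ones (2.36 and 3.09), 33.3% (25.2 to 42.7%) held forkhead and 17.6% (11.6 to 25.8%) held AP-1. The intervals of the first and last groups overlapped for both elements, for forkhead only at their ends. The groups between had 44.4 and 48.1% for forkhead, and 13.9% (8.60 to 21.7%) and 11.1% (6.47 to 18.4%) for AP-1. Both of these AP-1 intervals lay below that of the best-ranked group. Neither share fell steadily with rank. In the 6 high-background bins the forkhead share of shared regions was 42.6% (33.7 to 52.0%), and 45.1% (39.7 to 50.5%) on the rest of the chromosome. The peaks only in replicate 1 held it in 7.45% of these bins' summits and 8.78% of the others. The intervals of the shared regions in and outside these bins overlapped. Between the arms, 46.9% (38.4 to 55.5%) of shared summits on the short and 43.4% (37.97 to 49.0%) on the long arm held forkhead.

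The comparison with chromosomes 19, 21 and 22 was made for promoter, forkhead and AP-1 shares, 9 comparisons in all, by Fisher's exact test (two-sided) with Benjamini-Hochberg adjustment. Among shared regions, the forkhead share was 44.4% on chromosome 20 and 48.5, 46.9 and 46.7% on chromosomes 19, 21 and 22, and none of these differences passed the test (Fisher's exact test, adjusted p = 0.902 for each). The AP-1 share of chromosome 20 was 18.1% against 13.4, 18.6 and 16.7%, and these differences did not pass either (Fisher's exact test, adjusted p = 0.759, 0.902 and 0.902). A missed threshold does not show that the chromosomes were alike. These tests, and those below, compare raw shares, while the forkhead share of all tiles differed between chromosomes. It was 9.17% on chromosome 20 and 6.98, 11.6 and 7.03% on chromosomes 19, 21 and 22. For AP-1 the tile share was 1.61% on chromosome 20 and 1.54, 1.55 and 1.59% on the others. In the full lists, which also hold peaks without a partner, the forkhead share of chromosome 20 was lower, and 5 of 6 comparisons passed the test. The forkhead share of all its replicate 1 peaks was 21.95%, below the 32.2% of chromosome 19 (Fisher's exact test, adjusted p = 0.000351), the 40.3% of chromosome 21 (adjusted p = 8.08e-05) and the 38.5% of chromosome 22 (adjusted p = 9.52e-05). In replicate 2 it was 29.9%, against 34.1% on chromosome 19 (Fisher's exact test, adjusted p = 0.0501), 40.5% on chromosome 21 (adjusted p = 0.000494) and 37.4% on chromosome 22 (adjusted p = 0.00663). AP-1 shares of the full lists were lower than on chromosomes 21 and 22, with 7.64% in replicate 1 and 9.26% in replicate 2 against 19.4 and 17.8% on chromosome 21 (Fisher's exact test, adjusted p = 0.000196 and 5.41e-05) and 13.5 and 14.4% on chromosome 22 (adjusted p = 0.0373 and 0.00663). Against chromosome 19 neither list differed in AP-1 by Fisher's exact test (adjusted p = 0.707 and 0.885).

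Relative to genes, 97 of the 432 shared summits (22.5%, 18.8 to 26.6%) lay within 2 kb of a transcript start, where 14.4% of the chromosome's sequence lies. A further 180 (41.7%) lay in introns, 12 (2.78%) in exons and 143 (33.1%) between genes. On chromosome 19, the most gene-rich of the 4, the promoter share was 46.5%, 24.1 percentage points higher than on chromosome 20 (Fisher's exact test, adjusted p = 1.66e-08), and 31.8% of its sequence lies within 2 kb of a start. The share was 21.2% on chromosome 21 and 21.7% on chromosome 22, and neither differed from chromosome 20 by Fisher's exact test (adjusted p = 0.902 for each). Of the sequence, 14.2% on chromosome 21 and 23.4% on chromosome 22 lies within 2 kb of a start, so the promoter share was above the sequence share on chromosomes 19, 20 and 21 and below it on chromosome 22. The promoter share of chromosome 20 was 10.9% when only protein-coding transcripts were counted, and 5.53% of its sequence lies within 2 kb of such a start. Over all transcripts the promoter share was 17.0% for peaks only in replicate 1 and 22.4% for peaks only in replicate 2. The forkhead element was found at 52.6% (42.7 to 62.2%) of the promoter regions, 42.8% (35.8 to 50.1%) of the intronic ones and 42.7% (34.8 to 50.9%) of those between genes.

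Of the 545 protein-coding genes of the chromosome, 56 (10.3%) had a shared region within 2 kb of a start and 135 (24.8%) had one there or in the gene body. No peak of either list was found at 184 genes. The gene with the most shared summits was PLCB1, with 10 over 891110 bp, followed by ATP9A with 9 over 171877 bp and SLX4IP, which takes part in telomere maintenance, with 7. RIN2, a RAB5 exchange factor, and RPRD1B, a regulator of RNA polymerase II, had 6 each, and PLCB4 and the chromatin reader gene ZMYND8 had 5 each. With 4 each followed MACROD2, a mono-ADP-ribosylhydrolase gene that spans 2057828 bp, NOL4L, WFDC3, EYA2 and RIPOR3. Per 100 kb of gene, WFDC3 (9.09), RPRD1B (6.38) and ATP9A (5.24) were the densest of the genes with most summits.

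Gene lists were then read against these shares of all genes. Of 34 transcription factor and co-regulator genes, 5 had a shared region at a start (14.7%) and 11 at a start or in the body (32.4%). The 5 were ID1, SOX12, OVOL2, NFATC2 and CEBPB. At ID1, an inhibitor of basic helix-loop-helix factors, the summit lay 5 bp from the start with a forkhead match, with enrichments of 3.28 in replicate 1 and 3.82 in replicate 2 (17 and 19 reads). At SOX12, an HMG-box factor, it lay 111 bp from the start with 6.34 and 15.4. At the epithelial repressor OVOL2 the values were 3.49 and 4.58, and at NFATC2 they were 2.90 and 3.37.

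CEBPB lies in the densest bin. Its shared region (chr20:48808698-48810421), 1668 bp from the start, had 79 reads in replicate 1 and 158 in replicate 2, and enrichments of 3.28 and 15.8. The local background there was 5.61 times the genome-wide one in replicate 1 and 2.16 times in replicate 2, so the ratio between replicates was larger in enrichment than in reads. No peak of either list was found within 2 kb of a start or in the body of FOXA2 or FOXS1, both forkhead genes, nor at SNAI1, a repressor of epithelial genes. NCOA3 had 1 shared region in its body (2.51 and 3.11), and HNF4A had 2.

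Of 26 ligand, receptor and signalling genes, 6 had a shared region at a start (23.1%) and 11 in all (42.3%). These were GNAS, which encodes a stimulatory G protein subunit, with 6.85 and 9.16, PLCB1 (5.08 and 6.70), PLCB4 (3.28 and 6.71), the receptor phosphatase gene PTPRA (4.01 and 8.15), PREX1 (5.02 and 12.1) and CCN5, a secreted matricellular protein (2.70 and 6.25). The GNAS region (chr20:57481911-57482448) held both a forkhead and an AP-1 match. PREX1 and CCN5 each had 2 such regions, of which the better ranked is given. The PREX1 region lay 693 bp from a non-coding transcript and 50639 bp from the nearest protein-coding start, and the CCN5 region 5849 bp from a protein-coding start. The Notch ligand gene JAG1 had 2 peaks, both only in replicate 2, and BMP2 had 1.

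In the 3 remaining lists, 1 or 2 genes each had a shared region at a start. Of 17 cell cycle, replication and mitosis genes, 1 did (5.88%, and 11.8% with gene bodies), GINS1, a subunit of the replicative helicase (3.68 and 6.53, with a forkhead match), and 1 more had one in its body, the kinesin gene KIF3B (6.26 and 12.4). The mitotic kinase gene AURKA and PCNA, the replication clamp, had peaks only in replicate 2, and TPX2 and TOP1 had none. Of 22 genes of matrix, adhesion, proteases and their inhibitors, TGM2 alone had a shared region at a start (4.55%, and 18.2% with gene bodies), while CDH22, CDH4 and LAMA5 had them in the body and MMP9 had no peak. Of 15 survival, metabolism and stress genes, 2 had a shared region at a start (13.3%) and 4 at a start or in the body (26.7%), both near the shares of all genes. The 2 were ACSS1 (4.05 and 6.49) and TP53INP2 (3.23 and 4.07), and BCL2L1, an anti-apoptotic BCL2 relative, had 2 in its body, the stronger at 3.996 and 7.49. Gene lengths differ between the lists, with a median of 45297.5 bp for signalling genes and 24274 bp for all genes of the chromosome, and longer genes can hold more summits.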

How the data were processed

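FOXC1 ChIP-seq libraries of J82 cells (2 replicates, single-end reads of 75 bp) had been aligned to hg19 by BWA. For each replicate the authors ran MACS2 2.2.7.1 with the input as control. The study's methods also name the IDR tool for reproducible peaks, and the filter behind the deposited lists is not given in the sources used here. Each deposited list held a score (10 times −log10 p), a fold enrichment ratio, −log10 p and q-values, and a summit offset in bp. Input files were not analysed here.

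Chromosomes 1 to 22, X and Y were kept. Reads and local background at summits were solved from the deposited fold enrichment and −log10 p within 0.001, for 100% of replicate 1 and 99.9% of replicate 2 peaks. In replicate 2, 45 peaks that did not have exactly 1 solution were left out of these values. Depth was about 43200000 and 41500000 ChIP reads, from the background and a genome size of 2.7 Gb. Genes came from GENCODE version 44 mapped to GRCh37, where the study used version 19. The centromere gap was the longest internal run of N, and shared summits lay midway between the best peaks. Exact McNemar and Fisher tests ran in scipy 1.17.1. Read recovery and the motif search had been tried on simulated data, and these tests only on fixed counts. Other overlaps, thresholds, windows and single replicates were tried. Members, gene lists and elements were chosen with earlier results of these data known. Named were genes at the 20 best regions, the 10 genes with most shared summits and ties, the 3 strongest unpaired peaks per list, list members with a shared region at a start with up to 5 others per list, and the pairs at the edge of overlap. The genes listed for the high-background bins were chosen after values were seen.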

Additional observations from a re-analysis of the deposited data

How the results depend on the processing

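Thresholds moved the counts most. With a −log10 q of at least 5, chromosome 20 kept 188 replicate 1 peaks, 628 replicate 2 peaks and 183 shared regions, and 97.9% and 29.1% of the peaks were overlapped. With a fold enrichment of at least 5 these were 90, 312 and 89, and 98.9% and 28.5%. A reciprocal overlap of at least 50% gave overlapped shares of 34.7% and 19.6%, and summits within 100 bp gave 35.1% and 19.8%. The ratio of the long to the short arm was 2.22 for shared regions at a −log10 q of at least 5, 1.48 without the 6 high-background bins (chosen after seeing the data), and 2.32 to 2.50 when 1 replicate was used alone. The promoter share was 13.4% within 1 kb, 39.8% within 5 kb and 10.9% for protein-coding transcripts. The matching shares of the chromosome's sequence were 8.08, 29.4 and 5.53%. The forkhead and AP-1 shares of shared regions stayed above their control windows, with the exact McNemar test passed, in every alternative run.

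Differences from the other chromosomes depended on the list. When 1 replicate was used alone, the forkhead difference of chromosome 20 was −10.3 to −4.20 percentage points from chromosome 19, −18.4 to −10.6 from chromosome 21 and −16.6 to −7.47 from chromosome 22. The AP-1 difference was −11.7 to −8.49 from chromosome 21 and −5.87 to −5.10 from chromosome 22. The promoter difference was −1.82 to 2.86 from chromosome 21 and −1.13 to 0.23 from chromosome 22. The AP-1 difference from chromosome 21 was 1.90 for shared regions at a −log10 q of at least 5 (adjusted p = 1 by Fisher's exact test). A list of 1 replicate also holds peaks without a partner, and the cause was not tested. The promoter difference from chromosome 19 passed the test in all of these alternatives. No paired analysis was possible because no test compared ChIP with input libraries, the groups that share replicate numbers. The peak caller had already set each replicate against its input. Of 76 alternative values, 43 were labelled the same, 21 moved further, 7 newly passed the test and 5 changed sign. The rule for the same label differed by result. It was the direction and side of the threshold, a range around a count, an interval or the spread between the 2 replicates. For the density of shared regions this spread was wider than the value itself. For the background ratio, single replicates could not fall outside it. The tally therefore does not measure how stable the results are. The lists hold no value where no peak was called, so a gene without a peak had none at this depth and limit, which does not show that FOXC1 was absent.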

Other observations

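The heptamer AATAACA was seen by eye at 3 of the 5 best shared regions of chromosome 20, among which the KCNK15-AS1 and TGM2 regions held none of the 3 searched elements. It was chosen after seeing these sequences. In the other 427 shared regions it was found at 13 summits (3.04%) and in 10 control windows (2.34%). On chromosome 22 it was found at 7 of 120 summits (5.83%) and in 0 control windows, on chromosome 21 at 3 of 113 summits and in 5 control windows, and on chromosome 19 at 1 of 202 summits and in 3 control windows. No test was run on these counts.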
